A study of Mus musculus with 10 samples.

Results

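The 7 mammalian sirtuins, Sirt1 to Sirt7, were followed in poly(A) RNA of male C57 BL/6 mice. The tissue was the layer of granule cells in the dorsal dentate gyrus, the entry region of the hippocampus. Each symbol matched 1 Ensembl gene among the 49315 rows of a deposited count table, and all 7 passed the filter on low counts. There were 5 libraries from mice labelled cocaine and 5 from mice labelled saline, all named for drug self-administration. No other genotype, agent or age is given in the labels, and the sources used here give no dose, route or time of dissection. The layer was cut out and not sorted, so RNA of any cell in or beside it can be present.

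Sirtuins remove acetyl and other acyl groups from lysines of proteins and use up the coenzyme NAD in the reaction, which ties their activity to the energy state of a cell. Family members differ in where they work. SIRT1, SIRT6 and SIRT7 are mainly nuclear, SIRT2 is mainly cytoplasmic and is abundant in myelin-forming oligodendrocytes, and SIRT3, SIRT4 and SIRT5 are mitochondrial. In the brain, Sirt1 and Sirt2 are known for work on cocaine responses in the nucleus accumbens, a region that was not sampled here.

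Libraries held between 34991548 and 46481533 counts each. The libraries held markers of other cells beside those of granule cells. Prox1, the defining transcription factor of granule cells, stood at 315 ± 85.5 CPM in the cocaine group and 361 ± 44.5 CPM in the saline group (SD, n = 5). CPM is the count scaled to a normalised library total, as defined in edgeR. All 15 listed oligodendrocyte markers had a log2 fold change above 0, with a median of 0.65. Their summed level was 4200 to 11100 CPM in the cocaine libraries and 4100 to 5950 CPM in the saline libraries. Choroid plexus markers varied most between libraries, with a summed level of 65.8 to 3630 CPM with cocaine and 100 to 1410 CPM with saline. Cocaine replicate 5 stood apart from the others on the first principal component, at −54.2 where the other 9 libraries lay between −27.9 and 25.2, and it had the highest oligodendrocyte and choroid plexus sums and the lowest granule cell sum. In such tissue samples, fewer cells of a type and less RNA per cell cannot be told apart. The design text gives 5 mice a group for the 5 libraries, so p-values measure the spread between mice within the groups.

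In the edgeR quasi-likelihood test of cocaine against saline, 0 of the 7 sirtuins passed at an adjusted p (Benjamini-Hochberg over 17080 genes) under 0.05, as did 0.0% of all genes tested. All 7 had a log2 fold change above 0, as did 53.6% of all genes, and the median over the family was 0.25 against 0.0156 over all genes. At an unadjusted p under 0.05, Sirt2, Sirt4, Sirt6 and Sirt7 were higher and 0 sirtuins were lower, where 5.58% of all genes were higher and 3.33% lower. In Sirt4, Sirt6 and Sirt7, 4 of the 5 cocaine libraries lay above every saline library, which held for at least 4 cocaine libraries in 5.94% of all genes. In each of these 3 genes cocaine replicate 5 lay within the saline range. The groups overlapped in every sirtuin. DESeq2 and limma voom with sample weights also called 0 sirtuins. DESeq2, run without the filter on low counts used for edgeR, called 16 of 29629 genes with a fold estimate (0.054%), and limma voom called 95 of 17080 (0.556%). The default filter within DESeq2 can leave low-count genes without an adjusted p, so these 2 shares do not have the same base. Without cocaine replicate 5, edgeR called 1 sirtuin, Sirt4, and 129 genes (0.747%) in all.

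**Figure D1:**
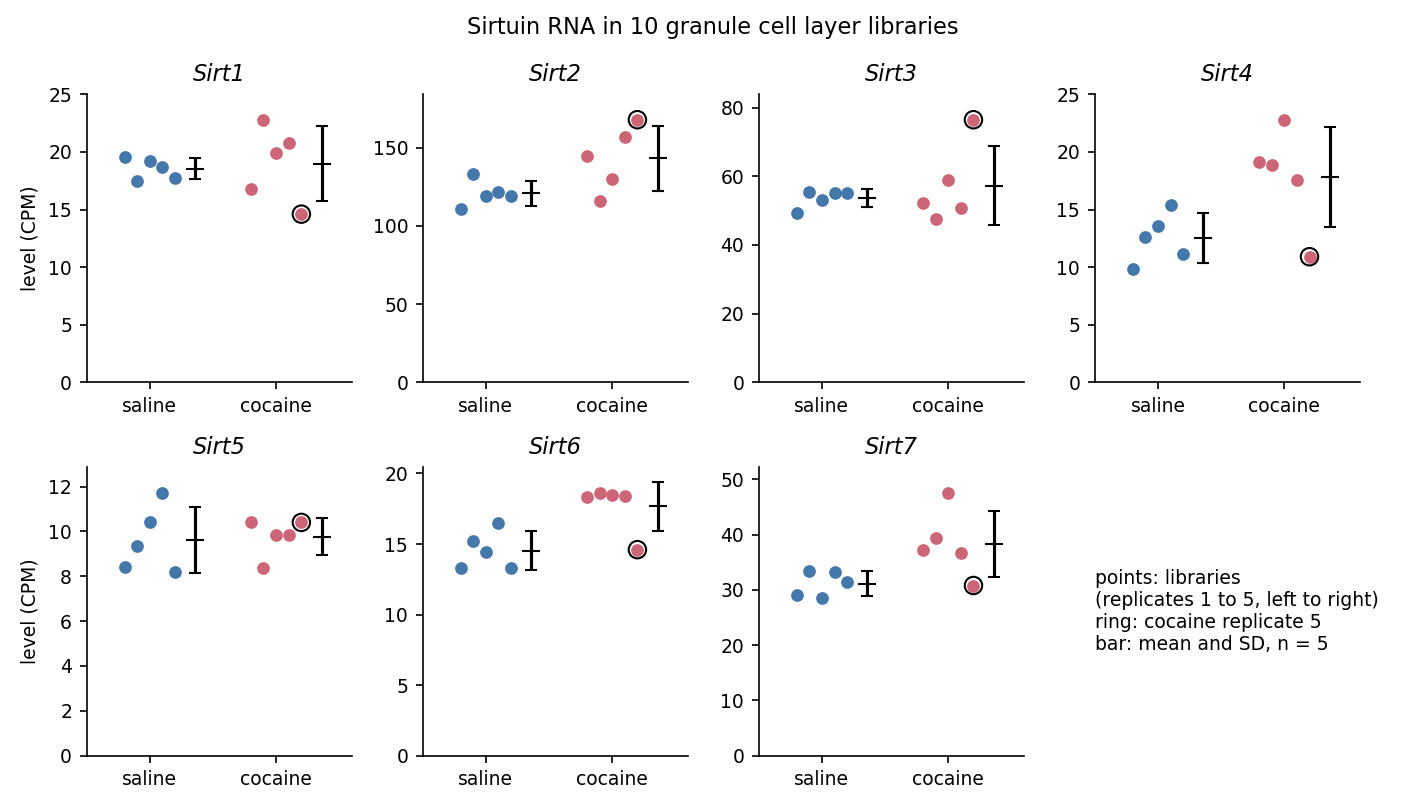
Level of each sirtuin (vertical axis, CPM from 0) in the 5 saline and 5 cocaine libraries, with the mean and SD of each group beside the points and cocaine replicate 5 ringed. In Sirt4, Sirt6 and Sirt7 the cocaine libraries other than replicate 5 sit above all saline libraries, and in Sirt2 and Sirt3 replicate 5 is the highest library.

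Levels of different genes were compared per kilobase of annotated exon, over all 10 libraries. Sirt2 was the most abundant sirtuin at 26.2 ± 3.78 CPM per kilobase (SD, n = 10), and it supplied 46.7% of the summed CPM of the family. Sirt3 followed at 9.28 ± 1.36 CPM per kilobase, below Sirt2 in 10 of 10 libraries. Sirt7, Sirt4 and Sirt6 came next at 6.75 ± 1.12, 6.33 ± 1.79 and 5.79 ± 0.792 CPM per kilobase. Neighbours in this order did not differ beyond their spread, since Sirt7 was above Sirt4 in 5 of 10 libraries and Sirt4 above Sirt6 in 6 of 10. Sirt7 was above Sirt6 in 10 of 10 libraries. Sirt1 stood at 3.52 ± 0.426 CPM per kilobase and Sirt5 was lowest at 1.59 ± 0.184 CPM per kilobase, each below the gene before it in 10 of 10 libraries. With the length of the longest coding transcript in place of all exons, Sirt2, Sirt3 and Sirt7 kept this order at 62.4, 34.5 and 20.1 CPM per kilobase. Sirt6 and Sirt4 then stood at 8.53 and 8.46 CPM per kilobase, and Sirt1 and Sirt5 at 4.24 and 4.00 CPM per kilobase.

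Because the series concerns DNA methylation, CpG sites near the sirtuin starts are described here from RefSeq promoter windows on GRCm38.p6, the assembly called mm10. Each window holds 250 bases before and 50 after a start, and all 7 genes matched, with 9 windows. CpG counts ran from 15 in Sirt4 and Sirt5 to 47 in Sirt1, where the median of all 32851 windows was 7 and 34.6% held at least 15. The stretches below show the Sirt1 window, densest in CpG, beside Sirt2, the most abundant member, and Sirt6, 1 of the members higher at an unadjusted p. Only bases outside annotated exons are printed, and capitals mark CpG.
Sirt1, chr10:63339051-63339285, minus strand: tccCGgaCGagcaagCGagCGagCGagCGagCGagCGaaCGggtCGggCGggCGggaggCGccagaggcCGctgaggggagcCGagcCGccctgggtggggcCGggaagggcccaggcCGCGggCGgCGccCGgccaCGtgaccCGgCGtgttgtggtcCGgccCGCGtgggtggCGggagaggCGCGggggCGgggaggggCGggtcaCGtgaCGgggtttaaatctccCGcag
Sirt2, chr7:28766641-28766734, plus strand: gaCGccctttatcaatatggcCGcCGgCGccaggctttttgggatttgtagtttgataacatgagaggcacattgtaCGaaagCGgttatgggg
Sirt6, chr10:81627321-81627471, minus strand: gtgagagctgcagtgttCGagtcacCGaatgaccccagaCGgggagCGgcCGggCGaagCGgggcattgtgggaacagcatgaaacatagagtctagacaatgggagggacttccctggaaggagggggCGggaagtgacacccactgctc
The Sirt1 stretch has 36 CpG in 235 bases, the Sirt2 stretch 6 in 94 and the Sirt6 stretch, which lies between annotated exons of Sirt6 before its second RefSeq start, 8 in 151. The Sirt1 stretch also holds the E-box letters CACGTG at 2 places, a string found on either strand in 7.15% of all windows and in no other sirtuin window. The letters CCGGAA, the core bound by ETS factors, occur on either strand in windows of Sirt3, Sirt4, Sirt6 and Sirt7 and in 14.9% of all windows, and no sirtuin window holds both strings. These are matches of letters, and methylation or binding at them was not measured in these files.

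Among the nuclear members, Sirt1, a deacetylase of histones and transcription factors, lies on chromosome 10 from 63319005 to 63381704 on the minus strand (mm10, GENCODE M21). Its level in cocaine replicates 1 to 5 was 16.8, 22.8, 19.9, 20.8 and 14.6 CPM. In the saline replicates it was 19.6, 17.5, 19.2, 18.7 and 17.7 CPM. The cocaine libraries spread to both sides of the saline range, with 3 above every saline library and 2 below. The fold change was 1.02 with a 95% interval of 0.864 to 1.21, and the edgeR adjusted p was 0.949. Raw counts of Sirt1 were 556 to 962 per library.

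Sirt6, a chromatin deacetylase known for its part in DNA repair and in control of glucose use, lies on chromosome 10 from 81621785 to 81627797 on the minus strand. Its level in cocaine replicates 1 to 5 was 18.3, 18.6, 18.5, 18.4 and 14.6 CPM, against 13.3, 15.2, 14.4, 16.5 and 13.3 CPM in the saline replicates. The first 4 cocaine libraries were nearly equal and above all saline libraries, while replicate 5 was inside the saline range. The group means were 17.7 ± 1.72 and 14.6 ± 1.36 CPM (SD, n = 5), a log2 fold change of 0.28 (SE 0.10, 95% interval 0.07 to 0.49). The unadjusted p in edgeR was 0.0135 and the adjusted p 0.511. Without cocaine replicate 5 the log2 fold change was 0.34 with an edgeR adjusted p of 0.0857. Leaving out saline replicate 1 instead gave 0.25 and an edgeR adjusted p of 0.892.

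Sirt7, the nucleolar member, which deacetylates histones and supports ribosomal RNA synthesis, lies on chromosome 11 from 120618372 to 120625240 on the minus strand. Its level was 37.2, 39.4, 47.5, 36.7 and 30.8 CPM in the cocaine replicates and 29.1, 33.4, 28.6, 33.3 and 31.4 CPM in the saline replicates. Cocaine replicate 3 was the highest library and replicate 5 again lay among the saline libraries. The means were 38.3 ± 6.06 and 31.1 ± 2.24 CPM (SD, n = 5), a log2 fold change of 0.30 (SE 0.11, 95% interval 0.07 to 0.53). In edgeR the unadjusted p was 0.0139 and the adjusted p 0.511, or 0.0821 with the log2 fold change at 0.37 without cocaine replicate 5. Leaving out saline replicate 1 instead gave 0.27 and an edgeR adjusted p of 0.892.

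The cytoplasmic member Sirt2, a deacetylase of tubulin and other proteins, lies on chromosome 7 from 28766735 to 28788661 on the plus strand. It stood at 145, 116, 130, 157 and 168 CPM in the cocaine replicates. The saline replicates stood at 111, 133, 119, 122 and 119 CPM. Replicates 1, 4 and 5 of the cocaine group exceeded every saline library, and replicates 2 and 3 lay within the saline range. The means were 143 ± 20.8 and 121 ± 8.08 CPM (SD, n = 5), a log2 fold change of 0.25 (SE 0.10, 95% interval 0.04 to 0.46) with an unadjusted p of 0.0257 and an adjusted p of 0.526 in edgeR.

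The libraries high in Sirt2 were those high in oligodendrocyte markers. The summed marker level was 7440, 8720 and 11100 CPM in cocaine replicates 1, 4 and 5, and at most 5950 CPM in any other library. Mbp, the myelin basic protein gene, averaged 2560 ± 1050 CPM in the cocaine group and 1740 ± 251 CPM in the saline group (SD, n = 5). Across 10 libraries Sirt2 followed the mean log2 CPM of the 15 markers with Pearson r of 0.906, with a permutation p of 0.00103 and an adjusted p of 0.00721 over the 7 sirtuins. Spearman rho was 0.770, with a permutation p of 0.0123 and an adjusted p of 0.0862. Without cocaine replicates 4 and 5, the libraries farthest from the median, r was 0.693, and as deviations from the group means it was 0.850, with a permutation p adjusted to 0.0141. Spearman rho of the deviations was 0.806, with a permutation p adjusted to 0.0495, and r without the 2 farthest libraries was 0.641. The deviations were shuffled over all 10 libraries and not within groups, so their p can be too small. The strength of the relation depends on cocaine replicates 1, 4 and 5, which lie apart from the rest. Over the other 7 libraries, a set chosen after the values were seen, r was 0.242, with an exact permutation p of 0.592. These 7 span a narrower range of the marker level, which can by itself lower r. None of the other 6 sirtuins passed in this family of relations over pooled libraries, with r from −0.461 for Sirt1 to 0.491 for Sirt3. With the marker level as a covariate, the log2 fold change of Sirt2 between the groups was 0.05 and its edgeR adjusted p 0.915. In the same fit Sirt4, Sirt6 and Sirt7 had log2 fold changes of 0.70, 0.36 and 0.46, with edgeR adjusted p of 0.452, 0.453 and 0.433. The marker level was itself highest in cocaine replicates 1, 4 and 5, so this covariate shares variation with the group. Its part in the Sirt2 difference was not tested.

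**Figure D2:**
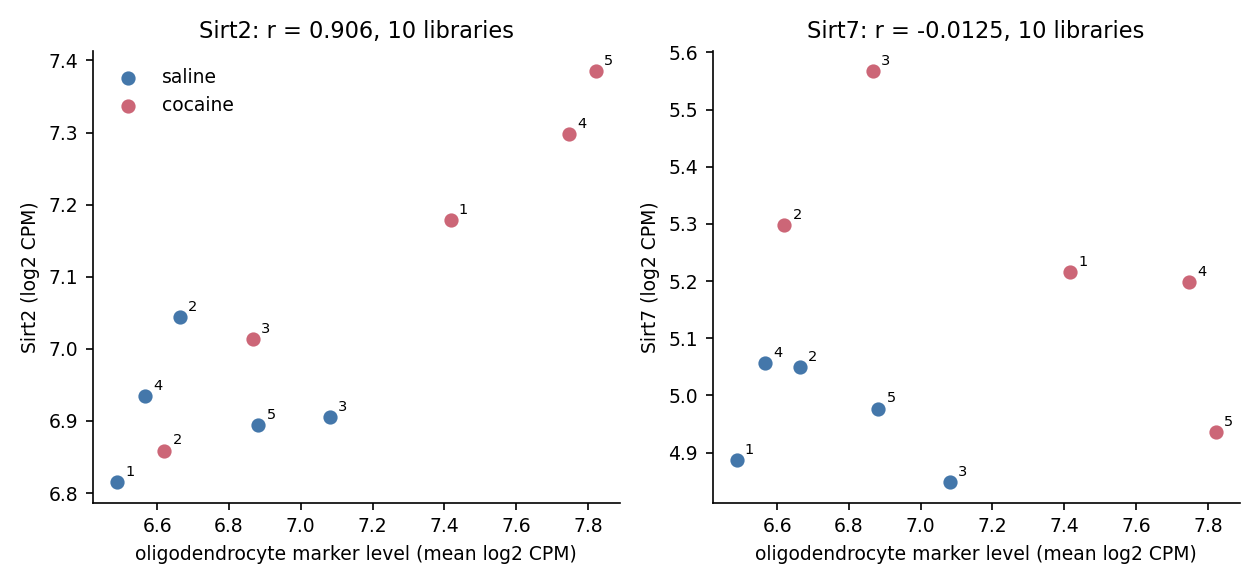
Level of Sirt2 (left) and Sirt7 (right), in log2 CPM, against the mean log2 CPM of 15 oligodendrocyte markers in 10 libraries, coloured by group and numbered by replicate. Sirt2 follows the marker level (r = 0.906) with cocaine replicates 1, 4 and 5 at the upper right, while Sirt7 does not (r = −0.0125).

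Of the mitochondrial members, Sirt3, the main deacetylase of that organelle, lies on chromosome 7 from 140863666 to 140882309 on the minus strand. It stood at 52.3, 47.7, 58.9, 50.8 and 76.5 CPM in the cocaine replicates and 49.2, 55.4, 53.2, 55.0 and 55.1 CPM in the saline replicates. Apart from replicate 5 at 76.5 CPM, the cocaine libraries spread around the saline libraries. The fold change was 1.07 with a 95% interval of 0.899 to 1.27 and an edgeR adjusted p of 0.825. Without cocaine replicate 5 the log2 fold change turned from 0.09 to −0.03.

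Sirt4, which restrains glutamate dehydrogenase in mitochondria, lies on chromosome 5 from 115478010 to 115484725 on the minus strand. It had the highest log2 fold change of the family. Its level was 19.1, 18.9, 22.8, 17.6 and 10.9 CPM in the cocaine replicates. The saline replicates had 9.85, 12.6, 13.6, 15.4 and 11.1 CPM. Cocaine replicates 1 to 4 lay above every saline library and replicate 5 near the lower end of the saline range. The means were 17.9 ± 4.34 and 12.5 ± 2.15 CPM (SD, n = 5), a log2 fold change of 0.51 (SE 0.17, 95% interval 0.14 to 0.89) and a fold of 1.43. The unadjusted p was 0.0115 and the adjusted p 0.504 in edgeR. Without cocaine replicate 5 the log2 fold change was 0.65 and the edgeR adjusted p 0.0452, and limma voom gave 0.60 with an adjusted p of 0.0536 on all libraries. Leaving out saline replicate 1 instead gave 0.44 and an edgeR adjusted p of 0.892.

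Sirt5, which removes succinyl and malonyl groups and lies on chromosome 13 from 43365496 to 43395203 on the plus strand, was the least abundant member at 334 to 485 raw counts. It stood at 10.4, 8.37, 9.84, 9.83 and 10.4 CPM in the cocaine replicates. In the saline replicates it was 8.41, 9.35, 10.4, 11.7 and 8.21 CPM. The cocaine range lay inside the saline range. The fold change was 1.02 with a 95% interval of 0.848 to 1.22 and an edgeR adjusted p of 0.971.

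**Figure D3:**
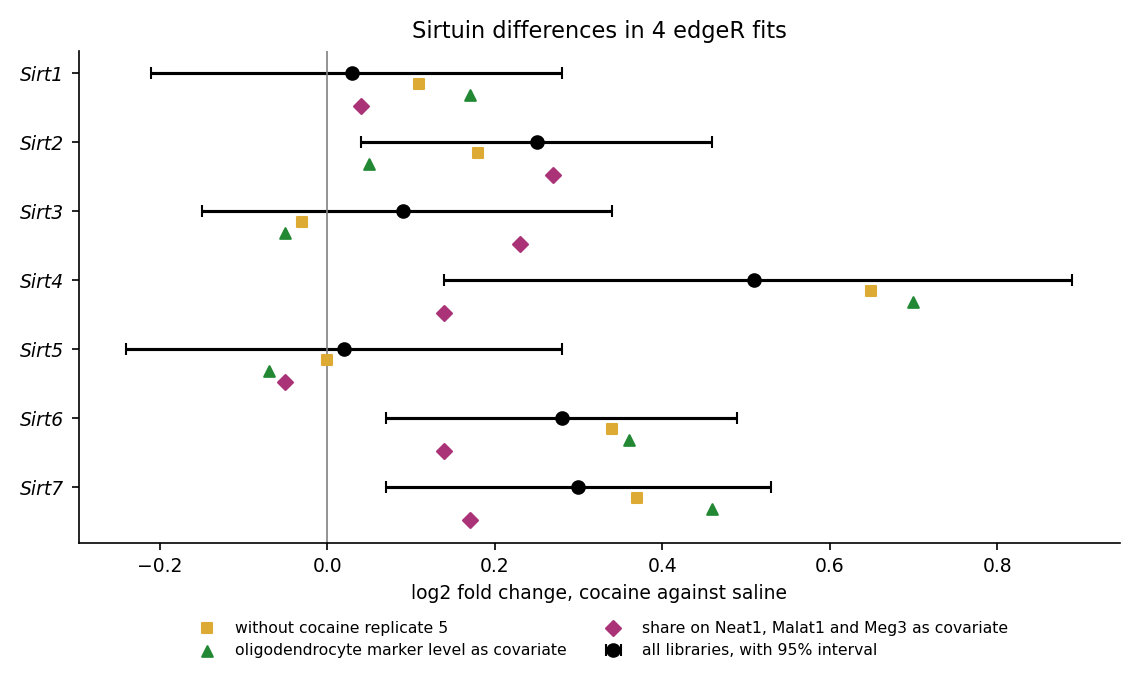
Log2 fold change of cocaine against saline for the 7 sirtuins in edgeR with all libraries (black, with 95% interval), without cocaine replicate 5, and with either of 2 covariates. Sirt2 moves from 0.25 to 0.05 with the oligodendrocyte marker level as a covariate, and Sirt4 from 0.51 to 0.14 with the nuclear RNA share (Neat1, Malat1, Meg3). Both covariates lay above the saline range in some cocaine libraries, and their part in these moves was not tested.

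The share of counts on 3 nuclear noncoding RNAs, Neat1, Malat1 and Meg3, was also higher in the cocaine libraries that were high in Sirt4, Sirt6 and Sirt7. It was 0.255%, 0.148%, 0.185%, 0.163% and 0.103% in cocaine replicates 1 to 5 and 0.0713% to 0.120% in the saline libraries. So cocaine replicate 5 lay within the saline range in this measure too. The share is mostly Meg3, at 533 CPM in cocaine replicate 5, 1030 to 1990 CPM in the other cocaine libraries and 471 to 823 CPM with saline. Its other members did not follow it throughout. Malat1 was highest of all in cocaine replicate 5, at 385 CPM, and its log2 fold change was 0.14, with an unadjusted p of 0.301. Neat1 stood at 89.8 CPM in that library, above the highest saline library at 88.8 CPM, and its log2 fold change was 0.76. With the share as a covariate, the log2 fold changes were 0.14 for Sirt4, 0.14 for Sirt6 and 0.17 for Sirt7, while Sirt2 stood at 0.27. In that fit 0 sirtuins kept an unadjusted p under 0.05, where 3.67% of all genes were higher. The share lay above the saline range in 4 of the 5 cocaine libraries, and its part in the sirtuin differences was not tested.

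The libraries high in Sirt4 were also those high in Sirt6 and Sirt7. Pearson r of log2 CPM over 10 libraries was 0.945 for Sirt4 with Sirt6, 0.889 for Sirt4 with Sirt7 and 0.843 for Sirt6 with Sirt7. Their permutation p adjusted over all 21 pairs were 0.00294, 0.00294 and 0.00826, from raw p of 0.00022, 0.00028 and 0.00118. Spearman rho was 0.855, 0.867 and 0.891, with a permutation p adjusted to 0.0204 for each of these pairs. Without the 2 libraries farthest from the median, r was 0.949, 0.828 and 0.852. The 4 high cocaine libraries lie apart from the other 6 in these genes, so the values were also taken as deviations from the group means. They were then 0.915, 0.809 and 0.696, with permutation p adjusted to 0.0122, 0.0448 and 0.123, so the last pair did not pass. The deviations were shuffled over all 10 libraries and not within groups, so these p can be too small. By Spearman rho of the deviations, at 0.794, 0.624 and 0.709, none of the 3 pairs passed, with permutation p adjusted to 0.197, 0.345 and 0.282. Without the 2 libraries farthest from the median, r of the deviations was 0.730, 0.592 and 0.482. Over the other 6 libraries alone r was 0.844, 0.410 and 0.592, with exact permutation p of 0.0333, 0.403 and 0.221. Adjusted over the 3 pairs these p ran from 0.0999 to 0.403. The Pearson r of Sirt4 with Sirt6 without cocaine replicates 1 to 4 was thus near its pooled value, and those of the pairs with Sirt7 were lower. By Spearman rho this contrast was not seen. Over these 6 libraries rho was 0.6, 0.429 and 0.6, with exact permutation p of 0.242, 0.419 and 0.242, and each rho was below its pooled value. The 1 further pair that passed by Pearson r was Sirt1 with Sirt3, at −0.798 with a permutation p adjusted to 0.0396. That relation rests on cocaine replicates 2 and 5, since r was −0.185 without them. These 21 pairs were examined after the levels had been seen.

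**Figure D4:**
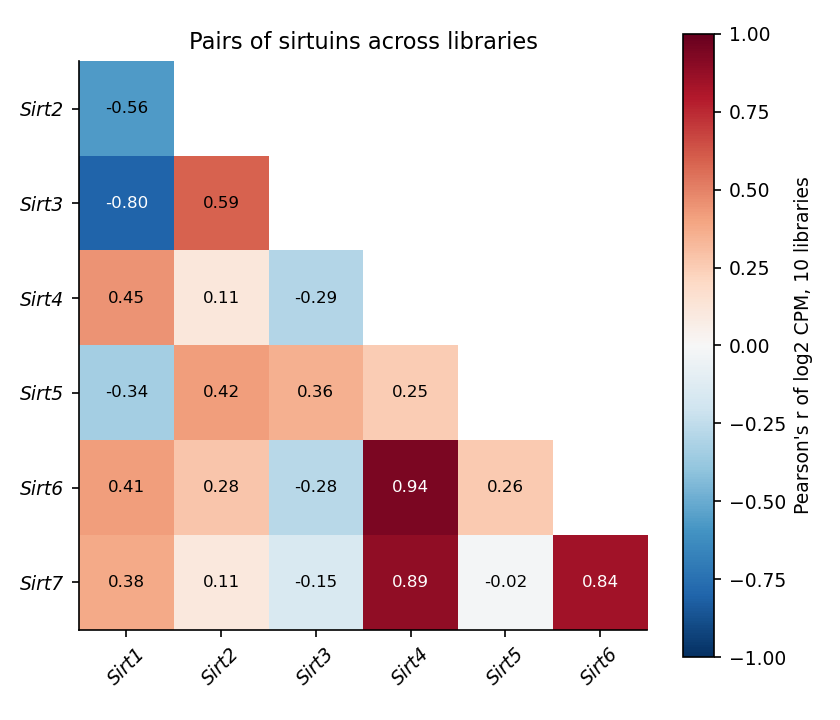
Pearson r of log2 CPM for each of the 21 pairs of sirtuins over 10 libraries, on a colour scale from −1 (blue) to 1 (red). The 3 pairs among Sirt4, Sirt6 and Sirt7 lie between 0.843 and 0.945, and the lowest value is −0.798 for Sirt1 with Sirt3.

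The genes most like each sirtuin were taken by the highest Pearson r over the same 10 libraries, among 11166 other protein-coding genes at a mean of 5 CPM or more. As the highest of so many values, these r carry no p. For Sirt2 they were Tyro3, a receptor kinase, at 0.952, Pcbp4 at 0.946 and Gltp, a glycolipid transfer protein gene, at 0.944. For Sirt4 they were Zdhhc1, Tial1 and Tle2, at 0.981, 0.979 and 0.975. For Sirt6 they were Pabpn1, a nuclear poly(A) binding protein gene, at 0.985, and Dync1i2 and Taz, both at 0.981. For Sirt7 they were Thoc1, of the complex that couples transcription to RNA export, at 0.977, Brat1 at 0.955 and Hdgfl2 at 0.943. Sirt3 was most like Ubl5, Cox5b, a subunit of cytochrome oxidase, and Hpf1, at 0.990, 0.989 and 0.988. In Sirt3, cocaine replicate 5 stood far above the other libraries, at 76.5 CPM against 47.7 to 58.9 CPM, and r without it was not taken. Libraries also lie apart in Sirt2 (cocaine replicates 1, 4 and 5) and in Sirt4, Sirt6 and Sirt7 (cocaine replicates 1 to 4). In Sirt1 these are cocaine replicates 2 and 5. The r of these sirtuins can rest on such libraries, and r without them was not taken either. Sirt1 was most like Htr4, Heatr6 and St18 at 0.940, 0.940 and 0.936. Sirt5 had the lowest values, at 0.891 for Sfxn4, 0.841 for Nup85 and 0.826 for Pgd.

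Neighbouring genes were read as well, because the strand setting of the counting is not given and reads of overlapping genes on opposite strands could then be mixed. Sirt2 overlaps Nfkbib, on the other strand, by 778 bases, and Nfkbib stood at 20.3 CPM in both groups. Sirt3 overlaps Ric8a by 707 and Psmd13 by 342 bases, both on the other strand, with log2 fold changes of 0.07 and 0.04. Sirt7 overlaps the end of Mafg, on the same strand, by 124 bases, and Mafg had a log2 fold change of 0.08. Sirt1 overlaps the antisense gene Gm16145, which averaged 0.0158 CPM in the cocaine group and 0.0049 CPM in the saline group. Sirt4, Sirt5 and Sirt6 overlap no annotated gene. Of 13 nearest protein-coding neighbours tested, 3 were higher by an unadjusted p under 0.05 and 0 were lower, where 5.58% and 3.33% of all genes were. Of these, Ankrd24, 743 bases from Sirt6, had 0.49 on the log2 scale and an unadjusted p of 0.00614. Pcyt2, 436 bases from Sirt7 on the same strand, had 0.30 with 0.000824, and Pxn, 21951 bases from Sirt4, had 0.41 with 0.0122, while all 3 had an edgeR adjusted p of 0.504. The other 10 ran from −0.28 for Gfod1 beside Sirt5 to 0.94 for Cox8b beside Sirt3, which had under 1 CPM in each group. BC025920, on the other side of Sirt6, had −0.16 and Pycr1, on the other side of Sirt7, had −0.01.

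The genes around the sirtuins were read from 5 lists of the pathway, in which edgeR called 0 genes. Their counts stand against 53.6% of all genes above a log2 fold change of 0, and, at an unadjusted p under 0.05, 5.58% that were higher and 3.33% that were lower. NAD synthesis and transport, which supplies the coenzyme, had 13 genes tested, of which 6 lay above a log2 fold change of 0, and the median was −0.01. By that threshold 0 were higher and 1 was lower. That gene was Nadk2, the mitochondrial NAD kinase, at 36.4 ± 2.58 CPM in the cocaine group and 42.3 ± 2.70 CPM in the saline group (SD, n = 5). Its log2 fold change was −0.22. Nadsyn1, NAD synthetase, had 0.42 with an unadjusted p of 0.0545. Nampt, the rate-limiting enzyme of NAD salvage, was named after its value was seen, and stood at 67.1 ± 4.78 and 72.9 ± 5.00 CPM (SD, n = 5).

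Other NAD-consuming enzymes had 16 genes tested and a median of 0.08. By the same threshold 0 were higher and 1 was lower. The lower gene was Tnks2, a tankyrase, at −0.19, and Parp3, a DNA repair enzyme, had 0.39 with an unadjusted p of 0.0772. Partners and regulators of sirtuins had 15 genes tested and a median of −0.02. By the same threshold 1 was higher and 3 were lower, where 5.58% and 3.33% of all genes were. Prkaa2, a catalytic subunit of the energy sensor AMPK, stood at 23.9 ± 4.44 CPM in the cocaine group and 32.4 ± 3.16 CPM in the saline group (SD, n = 5). Its log2 fold change was −0.43 and its edgeR adjusted p 0.504. The level of Prkaa2 was 29.0, 26.2, 18.0, 25.7 and 20.9 CPM in cocaine replicates 1 to 5, and 28.0 to 35.7 CPM in the saline libraries. Prkaa2 was named for the smallest p of its list, so a distance between the groups was built into the choice. Skp2, part of a ubiquitin ligase, had 0.50.

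Nuclear and cytosolic substrates and effectors had 28 genes tested, of which 8 had a log2 fold change above 0, and the median was −0.08. By the same threshold 2 were higher and 4 lower, again beside 5.58% and 3.33% of all genes. Xrcc6, which codes for the DNA end-binding protein Ku70, a known SIRT1 substrate, was at 18.2, 19.4, 19.1, 19.9 and 19.4 CPM in the cocaine replicates. In the saline replicates it was at 16.2, 16.8, 16.5, 16.4 and 15.8 CPM. These groups did not overlap, which held with cocaine above saline in 0.773% of all genes, and the log2 fold change was 0.23 with an edgeR adjusted p of 0.504. Hif1a, the oxygen-sensing transcription factor gene, had −0.19, with all 5 cocaine libraries below every saline library, as in 0.609% of all genes. Mitochondrial substrates had 23 genes tested, a median of 0.03, and 0 higher and 1 lower, the latter being Opa1, a fusion protein gene, at −0.17. Acss1, whose product SIRT3 activates, had 0.16 with an unadjusted p of 0.130.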

How the data were processed

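Per the labels' protocols, extraction used a Qiagen RNeasy Micro kit, and directional libraries of poly(A) RNA came from an NEB Ultra II kit. The authors deposited raw counts per Ensembl gene, without normalization. Per the submitters' processing notes, cutadapt, STAR, Cufflinks, HTSeq and mm10 were used. The sources used here give no versions, annotation release, strand setting or filters. GENCODE M21 supplied symbols, exon lengths and coordinates for 48988 of 49315 genes, and the rest took 0.0531% of the counts.

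Genes were filtered with filterByExpr, scaled by TMM and tested with edgeR 4.0.16 (R 4.3.3) by a two-sided quasi-likelihood F test of group, with all 10 libraries and Benjamini-Hochberg adjustment over 17080 genes. DESeq2 1.42.0 and limma 3.58.1 voom were alternatives, as were other scalings, no filter, covariates, a replicate block and each library left out. Log2 CPM used a prior count of 2. Correlations had two-sided permutation tests with 100000 resamples. Deviations from group means were also shuffled over all 10 libraries, with no allowance for the means taken out, so their p can be too small. The gene test was tested on simulated counts first.

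All 7 sirtuins are named, as are the 2 genes with the smallest p of each pathway list, defining cell type markers such as Mbp and Prox1, the 3 genes most like each sirtuin and the neighbouring genes. Some genes that this rule takes are not reported here. The members and lists were chosen with earlier results of these data known. CPM are relative to each library's total.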

Additional observations from a re-analysis of the deposited data

Results flagged for a closer look

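The level of Sirt6 in cocaine replicate 5, 14.6 CPM, lay far from the other 4 cocaine libraries, which stood at 18.3 to 18.6 CPM. Its gap to the nearest library took a share of 0.915 of the group's range, above the critical value of 0.71 for 5 samples. Sirt5 in cocaine replicate 2, at 8.37 CPM, lay below the other cocaine libraries at 9.83 to 10.4 CPM, with a share of 0.715. Of 34 groups of 5 libraries examined, over the sirtuins and the named pathway genes, these 2 were marked, and chance marks about 1 group in 20.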

How the results depend on the processing

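The count of genes called by edgeR, 0 with all libraries, was 16 in DESeq2, 95 in limma voom and 0 to 129 when each library was left out, the highest without cocaine replicate 5. The count of sirtuins called was 0 in all other alternatives and 0 to 1 when each library was left out, the 1 being Sirt4 at an adjusted p of 0.0452 without cocaine replicate 5. The count of sirtuins at an unadjusted p under 0.05, 4 with all libraries, was 0 with the nuclear RNA share (Neat1, Malat1, Meg3) as covariate. It was 3 to 4 when each library was left out, where 3.63% to 8.87% of all genes were higher. Sirt2, Sirt4, Sirt6 and Sirt7 kept a positive log2 fold change in all 18 alternatives, from 0.05 to 0.32, 0.14 to 0.70, 0.14 to 0.36 and 0.17 to 0.46. Sirt1 ran from −0.04 to 0.11 over the libraries left out. Sirt3 turned to −0.02 in limma voom and −0.05 with the oligodendrocyte marker level, and ran from −0.03 to 0.16 over the libraries left out. Sirt5 turned to −0.07 with the oligodendrocyte marker level and −0.05 with the nuclear RNA share, and ran from −0.03 to 0.10 over the libraries left out. The cause of these turns was not tested. The correlation of Sirt2 with the oligodendrocyte marker level ran from 0.854 to 0.945 over the libraries left out, with a permutation p adjusted to 0.0512 without cocaine replicate 1.

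The labels do not say whether replicate numbers pair the mice. Same-numbered libraries deviated from their group means with r from −0.215 to 0.0291, and 0 of 10 libraries correlated best with their own number. Low r of this kind cannot show that the numbers mark no shared litter or day, and that was not tested. With the replicate block, 0 sirtuins were called and 3 kept an unadjusted p under 0.05 (4.30% of all genes were higher), with Sirt2 at 0.24 and Sirt4 at 0.49. The 95% intervals of Sirt1, Sirt3 and Sirt5 span 0, so the direction of any difference was not resolved here. Such an interval is not a limit of detection. Sirt2, Sirt4, Sirt6 and Sirt7 had intervals above 0 and were not called with all libraries. On simulated counts, edgeR called 26 of 66 genes changed by a fold of 1.5. Those counts were drawn gene by gene, with other genes changed by folds of 2 and 3 and no library set apart. The share called there is therefore not the sensitivity of the real comparison.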

Other observations

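As deviations from the group means, Sirt7 and the oligodendrocyte marker level had Pearson r of −0.700 over 10 libraries, with a permutation p of 0.0211 and an adjusted p of 0.0739 over the 7 sirtuins, or r of −0.709 without cocaine replicates 2 and 5. The pooled r was −0.0125. Spearman rho of the deviations was −0.685, with a permutation p of 0.0345 and an adjusted p of 0.121. The p of the deviations come from shuffles over all 10 libraries and can be too small. The summed level of the 7 sirtuins was 303 ± 19.9 CPM in the cocaine group and 261 ± 14.6 CPM in the saline group (SD, n = 5), given here with no test.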
